A study of Mus musculus with 6 samples.

Results

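Genes whose mouse symbol starts with Zfp and a number encode zinc finger proteins, most of them DNA-binding proteins. They were examined in sorted Lin-/Sca1-/cKit+ cells, a fraction of committed blood progenitors that lacks lineage markers and Sca1 and carries the receptor Kit. Expression was measured on 6 Affymetrix Mouse430_2 arrays, 1 per sample, from 200 ng of total RNA each. The leukemia group held 3 samples from the spleens of MF1 mice that had been lethally irradiated and transplanted with hematopoietic progenitors transduced with AE9a, a truncated form of the leukemia fusion protein AML1-ETO. The wild-type group held 3 samples, taken from bone marrow, of MF1 mice without the transgene. All mice were 12 to 16 weeks old. The transgene, the transplantation and the tissue differ together between the groups and cannot be told apart. The labels give 1 numbered mouse for each leukemia sample and unnumbered mice for the wild-type ones, which may be pools. A p-value here covers only the variation among the 6 samples, which may be partly technical.

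Of the 13146 genes measured by a probe set with a single gene symbol, 299 had a Zfp symbol. Values are the deposited RMA intensities, a background-corrected and normalized probe set summary, on the log2 scale. For each gene the probe set with the highest mean log2 intensity over the 6 arrays was used, and it was kept if it reached the 40th percentile of its array (5.39 to 5.54 log2) on at least 3 arrays. This left 219 Zfp genes among 9715 genes tested, and the other 80 Zfp genes were dim. Of the 219 genes, 176 reached the percentile on all 6 arrays, 9 on the wild-type arrays alone, 4 on the leukemia arrays alone and 30 in other combinations. The 13 genes that passed through 1 group alone had to differ between the groups, and all 13 were called, so counts over the 219 genes are descriptions. The 3 genes just inside the limit were Zfp287, Zfp113 and Zfp28, with wild-type means of 5.72, 5.63 and 5.66 log2 and leukemia means of 5.09, 5.23 and 5.18. The 3 just outside were Zfp493, Zfp111 and Zfp82, with wild-type means of 5.59, 5.35 and 5.25 and leukemia means of 5.04, 5.44 and 5.36.

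A zinc finger is a short protein fold held together by a zinc ion, and proteins with arrays of C2H2 fingers read DNA sequence. Many mouse Zfp proteins also carry a KRAB domain, which recruits the corepressor Trim28 and, through it, histone methyltransferases and heterochromatin proteins, and they are known for silencing retroelements. The symbol is a name and not a single structural class. It also covers CCCH proteins of the Zfp36 family, which bind AU-rich elements in mRNAs and recruit deadenylases, and the LIM domain protein Zfp185. Many KRAB zinc finger genes stand in clusters of related copies, so probe sets may detect more than 1 of them.

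Most Zfp genes differed little between leukemia and wild-type cells, and those that changed were more often lower in leukemia. Of the 219 genes, 49 were lower and 20 were higher in leukemia (limma, Benjamini-Hochberg adjusted p under 0.05), which together is 31.5% of the Zfp genes against 42.1% of all genes tested. The share that was lower was 22.4% against 25.2% of all genes, and the share that was higher was 9.13% against 16.9%. Called genes that differed 2-fold or more numbered 28, 19 lower and 9 higher, or 12.8% against 19.0% of all genes (11.6% lower and 7.46% higher). The median change was -0.13 log2 for Zfp genes and -0.09 for all genes, and the median size of change was 0.38 and 0.40 log2. Called genes ranged from a change of -3.16 (Zfp608) to one of 3.44 (Zfp185). At an unadjusted p under 0.05 (limma), 90 of the 219 Zfp genes differed. The share of all genes at that limit was not computed, so this count is a description only. With the filter set on the mean over the 6 arrays instead, which does not depend on 1 group, 60 of 208 Zfp genes were called, 18 higher and 42 lower, against 16.6% higher and 23.4% lower among all genes. Without wild-type replicate 1, 2 or 3 the count of called Zfp genes was 39, 39 or 36. These are 17.8%, 17.8% and 16.4%, against 29.3%, 28.2% and 27.2% of all genes. Without leukemia replicate 1 the count was 85, or 38.8% against 48.5% of all genes. Every Zfp gene called in a fit without 1 wild-type replicate had been called with all arrays.

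**Figure D1:**
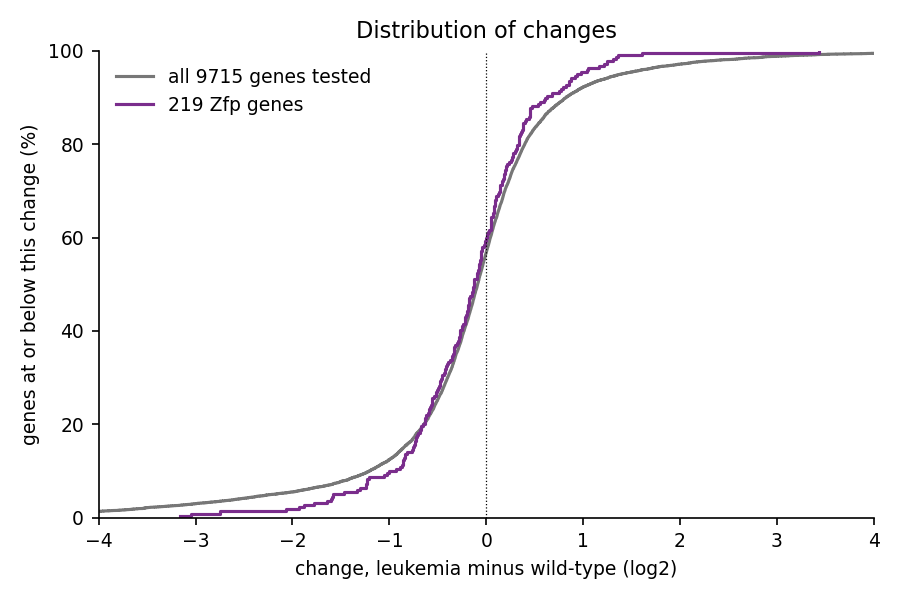
Cumulative share of genes (y axis, percent) at or below each change in expression (x axis, leukemia minus wild-type, log2) for the 219 Zfp genes and for all 9715 genes tested. The curves cross 0 close together, with medians of -0.13 and -0.09, and the Zfp curve ends at -3.16 and 3.44 while that of all genes runs beyond both ends of the axis.

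Zfp genes were dimmer than the average gene on the array, with a median level of 7.05 log2 against 8.21 for all genes tested. The genes were split into 3 equal groups by mean level. In the dimmest group (under 6.56 log2) 34 of 73 were called, or 46.6%, against 49.8% of all genes in the same range. This group holds the 13 genes that passed through 1 group alone, and without such genes, a count added after seeing the data, the shares were 35% (21 of 60) and 28.2%. In the middle group (up to 7.52) the share was 28.8% against 41.1%, with 2 genes higher and 19 lower. In the brightest group 14 of 73 Zfp genes were called, 5 higher and 9 lower, which is 19.2% against 39.5%. The median size of change was 0.63 in the dimmest and 0.22 log2 in the brightest group, where all genes gave 0.34.

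**Figure D2:**
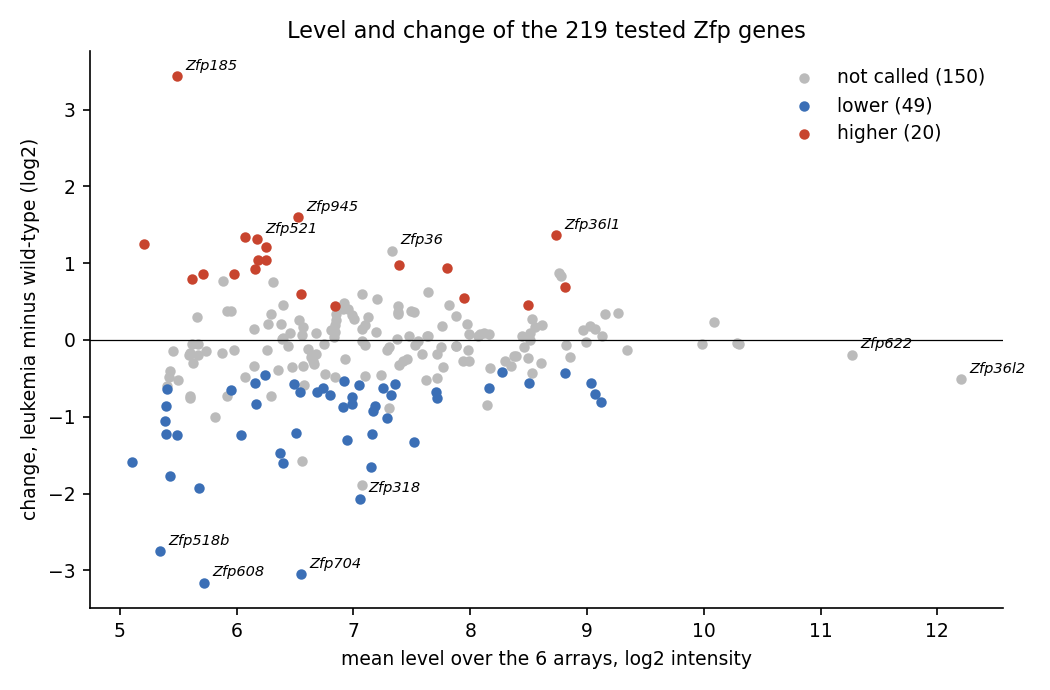
Mean level over the 6 arrays (x axis, log2 intensity) and change (y axis, leukemia minus wild-type, log2) of each tested Zfp gene, coloured by its call. The called genes spread from -3.16 to 3.44 at low and middle levels, and Zfp36l2 and Zfp622 at the bright end were not called.

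The Zfp36 family differed among its 3 measured members, of which 1 rose. Zfp36l1, which promotes decay of mRNAs with AU-rich elements, was at 8.46, 7.53 and 8.16 log2 on wild-type arrays 1, 2 and 3 and at 9.61, 9.18 and 9.45 on leukemia arrays 1, 2 and 3. Every leukemia array lay above every wild-type array, and the gene rose by 1.37 ± 0.25 log2 (SE, limma adjusted p = 0.00482), a 2.58-fold difference. A second probe set of Zfp36l1 rose by 1.80 ± 0.24 (limma adjusted p = 0.00153 over all probe sets tested singly). That probe set was at 4.92, 4.48 and 4.03 in wild-type and passed the filter through the leukemia arrays alone. Its separation was therefore required by the filter. Zfp36, or tristetraprolin, an early response gene of the same family, was at 6.28, 7.10 and 6.86 log2 in wild-type and at 9.58, 7.28 and 6.86 in leukemia. The difference was 1.16 ± 0.68 (limma adjusted p = 0.205), and without leukemia replicate 1 it was 0.33. Leukemia array 1 alone lay 2.84 above the wild-type mean, which is the value that the fit with the fluidics run as a block gives, since it sets that array alone against wild-type. Zfp36l2, the brightest Zfp gene, was at 12.37, 12.51 and 12.49 in wild-type and at 12.15, 11.48 and 12.22 in leukemia. All leukemia values lay below the wild-type values, but the change of -0.51 ± 0.18 did not pass (limma adjusted p = 0.0641), while it passed on leaving out single leukemia arrays, with limma adjusted p of 0.0468, 0.0154 and 0.0351 without replicates 1, 2 and 3. Zfp36l3 was not analysed here.

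These proteins act through the deadenylation and decay machinery of mRNA. Of 23 tested genes of that machinery, out of 24 listed, 3 rose and 1 fell, or 17.4% against 42.1% of all genes, with a median change of -0.13. Btg2, an antiproliferative adaptor of the CCR4-NOT deadenylase, rose by 1.17 ± 0.23 (limma adjusted p = 0.00690). The CCR4-NOT subunit Cnot2 rose by 0.43, while the decapping factor Dcp1a fell by 0.45.

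Of 10 tested genes on a list of 14 with known roles in stem cells, blood cells or silencing, 1 rose and 2 fell, or 30% called against 42.1% of all genes. Their median change was -0.10. Zfp521, a cofactor of early blood progenitors and the Evi3 integration site of mouse lymphoma, was at 5.23, 5.83 and 5.49 log2 in wild-type and at 6.07, 7.33 and 7.08 in leukemia. The groups did not overlap, with leukemia array 1 the nearest to the wild-type values, and the gene rose by 1.31 ± 0.35 (limma adjusted p = 0.0219). A second probe set rose by 0.82 ± 0.15 (limma adjusted p = 0.00497 over all probe sets). The call of the brighter probe set was lost when wild-type replicate 1 or 3 was left out (limma adjusted p = 0.0797 and 0.0732), when leukemia replicate 2 or 3 was left out (0.0526 and 0.0552), as well as under the run block, where the lone leukemia array is assumed to vary like the others (change 0.55, limma adjusted p = 0.137).

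Zfp318, which is needed for IgD expression in mature B cells, fell. It was at 8.13, 8.08 and 8.04 log2 in wild-type and at 5.91, 6.87 and 5.28 in leukemia, a change of -2.06 ± 0.37 (limma adjusted p = 0.00481). Wild-type arrays lay close together (SD 0.05) while the leukemia arrays spread widely (SD 0.80), and no leukemia value reached the wild-type range. A second probe set also fell, by 1.34 (adjusted p = 0.0123, limma over all probe sets). Among the 3 measured of 6 listed B cell markers the immunoglobulin heavy chain gene Ighm fell by 4.69, Cd79b was at -0.98 without passing (limma adjusted p = 0.150) and Ms4a1 was dim on all arrays. Their summed intensity was 669.5 to 1263 in wild-type and 84.9 to 265 in leukemia, and its part in the fall of Zfp318 was not tested. Fewer cells of a type and less RNA per cell cannot be told apart in such bulk samples.

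Zfp335, a chromatin-associated factor needed in neural progenitors and for T cell maturation, fell by 0.63 ± 0.14 (limma adjusted p = 0.0124), from 7.03, 7.07 and 7.07 log2 to 6.45, 6.56 and 6.26. This call was lost without wild-type replicate 2 (limma adjusted p = 0.0519) or 3 (0.0555). The other members of the list were at values that did not pass. Zfp809, which binds the primer site of murine leukemia virus and brings Trim28 to it, was at 8.11, 7.82 and 7.96 in wild-type and at 7.01, 7.59 and 7.81 in leukemia, lowest on array 1 (change -0.49 ± 0.22, limma adjusted p = 0.116). Zfp568, a repressor of a placental Igf2 transcript, was at -0.20, and Zfp296, a factor of pluripotent cells, was at -0.13. Zfp148 and Zfp281, GC-box binding regulators, were at -0.07 and -0.08, and Zfp217, an oncogene product that works with corepressors, was at 0.34. A further probe set of Zfp148 rose by 0.57 (adjusted p = 0.0242, limma over all probe sets). Its other further probe sets, from -0.31 to 0.23, did not pass. Zfp91 was at 0.23 with its brightest probe set (limma adjusted p = 0.223), whereas a second probe set of this ubiquitin ligase rose by 1.13 (adjusted p = 0.0133, limma over all probe sets). Zfp423, Zfp143, Zfp42 and Zfp57 were not analysed here.

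Among 10 tested zinc finger proteins that act on RNA, ribosomes or the spindle, 2 fell and 0 rose. The share that fell was 20% against 25.2% of all genes, and the median change was -0.12. Zfp598, the ubiquitin ligase that marks collided ribosomes, was at 8.74, 8.80 and 8.82 log2 in wild-type and at 8.20, 8.24 and 8.24 in leukemia. Both groups were tight and well apart, and the gene fell by 0.56 ± 0.10 (limma adjusted p = 0.00498). Zfp385a, also called Hzf, an RNA-binding and p53-modulating protein found in megakaryocytes, was at 6.98, 7.03 and 7.31 in wild-type and at 5.50, 5.49 and 5.93 in leukemia, and it fell by 1.47 ± 0.19 (limma adjusted p = 0.00109). Zfp106, an RNA-binding protein, lay between 9.93 and 10.07 on all 6 arrays, with a difference of -0.05 ± 0.08. Zfp207, a spindle assembly protein that binds Bub3, was at -0.04 ± 0.12, and the double-stranded RNA-binding Zfp346 at 0.07 ± 0.14. Zfp622, a factor of late large subunit maturation, was at -0.19 with its brightest probe set, one with an ending that marks possible shared targets (limma adjusted p = 0.113), while a probe set without such an ending fell by 0.56 (adjusted p = 0.0125, limma over all probe sets). The splicing-linked Zfp326 and Zfp830 were at -0.27 and 0.21, the ribosome biogenesis factor Zfp593 at 0.34 and Zfp638, an RNA- and DNA-binding protein of nuclear speckles, at -0.43, none of which passed. The further probe set of Zfp593 went the other way, at -0.54, and did not pass either (adjusted p = 0.135, limma over all probe sets). Both probe sets of Zfp593 have endings that mark possible shared targets.

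The largest rise was that of Zfp185, a LIM domain protein that binds actin. It was at 3.61, 4.07 and 3.65 log2 in wild-type and at 7.02, 6.0 and 8.61 in leukemia, so it passed the filter through the leukemia arrays alone. The groups were far apart but the leukemia arrays spread over a wide range (SD 1.31), and the gene rose by 3.44 ± 0.60 (limma adjusted p = 0.00421), or 2.50 with 16 added before the log. Leaving out single arrays moved the rise from 2.74 to 4.04. A second, dimmer probe set lay at 4.58, 4.49 and 4.54 in wild-type and at 5.46, 5.04 and 7.12 in leukemia, with leukemia array 3 again the highest and array 2 the lowest of its group.

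Several further rises belonged to C2H2 genes at low levels in wild-type cells. Zfp945 was at 5.96, 5.82 and 5.40 log2 in wild-type and at 7.93, 7.07 and 6.98 in leukemia (1.60 ± 0.29, limma adjusted p = 0.00510). Zfp948 was at 4.80, 4.40 and 4.57 in wild-type and at 5.89, 5.64 and 5.96 in leukemia, where alone it passed the filter (1.25 ± 0.18, limma adjusted p = 0.00180). Zfp991 was at 5.65, 5.44 and 5.85 and at 7.06, 6.91 and 6.61 (1.21 ± 0.19, limma adjusted p = 0.00262). In each of these the groups did not overlap and the calls held when any single array was left out. Zfp944 rose by 1.04, from 5.82, 5.60 and 5.79 in wild-type to 7.07, 6.63 and 6.62 in leukemia, and its call held likewise. A second probe set of Zfp944 was at 0.47 and did not pass (adjusted p = 0.129, limma over all probe sets). Zfp324 rose by 1.34 and stood at 5.88 on leukemia array 1 against 7.18 and 7.17 on arrays 2 and 3. That call was lost without wild-type replicates 1, 2 or 3 (limma adjusted p = 0.0733, 0.0797 and 0.0592) and without leukemia replicates 2 or 3 (0.0589 and 0.0570). Zfp395 rose by 1.05 and Zfp597 rose by 0.98. Both were highest on leukemia array 1, at 7.36 and 8.41, and both calls were lost on leaving out any wild-type array (limma adjusted p from 0.0519 to 0.0899). With the fluidics run as a block their rises were 1.70 and 1.51, whereas that of Zfp324 was 0.48 (limma adjusted p = 0.0904).

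**Figure D3:**
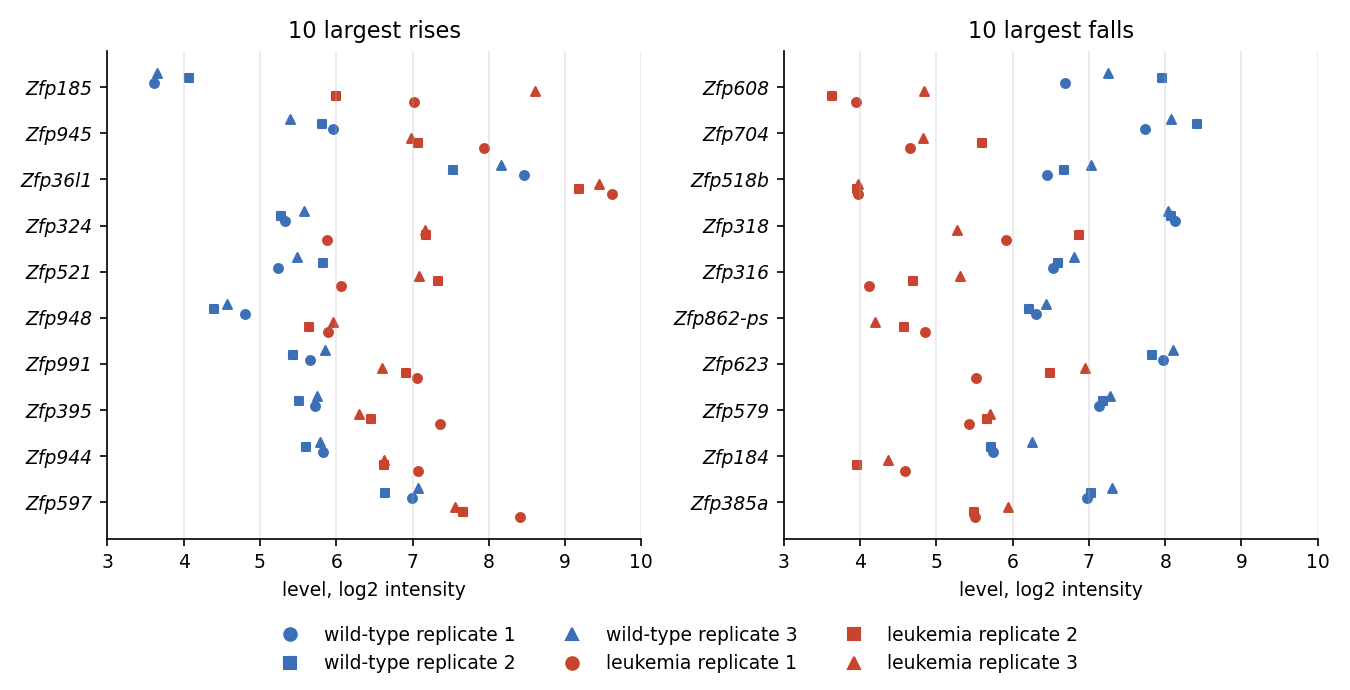
Level (x axis, log2 intensity) of the 10 Zfp genes with the largest rises and the 10 with the largest falls on each array, with blue symbols for wild-type and red for leukemia and 1 shape per replicate number. In each of the 20 genes all leukemia symbols lie on one side of all wild-type symbols, and Zfp185 and Zfp318 show the widest leukemia spread (SD 1.31 and 0.80).

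The largest falls reached 8.93-fold. Zfp608, described as a repressor of Rag genes in thymocytes, was at 6.68, 7.96 and 7.25 log2 in wild-type and at 3.95, 3.63 and 4.84 in leukemia (change -3.16 ± 0.42, limma adjusted p = 0.00120). Zfp704 was at 7.73, 8.41 and 8.08 in wild-type and at 4.65, 5.60 and 4.83 in leukemia (change -3.05 ± 0.30, limma adjusted p = 3.02e-04). Zfp518b was at 6.46, 6.67 and 7.03 in wild-type and at 3.97, 3.96 and 3.98 in leukemia (change -2.75 ± 0.19, limma adjusted p = 6.45e-05). Zfp608 and Zfp518b lay below the percentile on all leukemia arrays and Zfp704 on 2 of them, so the size of these falls rests on dim leukemia values. With 16 added before the log the changes of these 3 genes were -2.35, -2.55 and -1.94. Second probe sets of Zfp608 and Zfp704 fell by 1.49 and 3.34, both with calls. Both of these had passed the filter through the wild-type arrays alone. Under quantile normalization the change of Zfp608 was -1.40. The brightest probe set was chosen anew in that setting, so this value may belong to the second probe set, which fell by 1.49.

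Zfp316 fell by 1.93, the pseudogene Zfp862-ps fell by 1.78 and Zfp184 fell by 1.59, and all 3 were below the percentile on every leukemia array. Zfp623 fell by 1.65, from 7.83 to 8.11 in wild-type to 5.52, 6.49 and 6.95 on leukemia arrays 1, 2 and 3. Zfp579 was at 7.14, 7.18 and 7.28 and at 5.43, 5.67 and 5.70, and it fell by 1.60 ± 0.15 (limma adjusted p = 2.66e-04), with tight groups that lay at or above the percentile on all 6 arrays. Zfp608, Zfp518b, Zfp316, Zfp862-ps and Zfp184 had passed the filter through the wild-type arrays alone, so that their separation was required by it. The calls of Zfp704, Zfp318, Zfp623, Zfp579 and Zfp385a held in every alternative that tested them.

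Leukemia array 1 stood apart for Zfp genes as well. Across the 219 genes Pearson's r was 0.906 and 0.890 between it and leukemia arrays 2 and 3, 0.922 between those, 0.979 to 0.985 within wild-type and 0.736 to 0.834 between groups (across genes, which are not independent replicates). It was the highest of all 6 arrays for 62 Zfp genes, against 13 and 32 for leukemia arrays 2 and 3, and a wild-type array was the highest for 112. The same shares were not computed over all genes, so these counts are descriptions only. Among the 20 higher genes leukemia array 1 was the highest leukemia array in 12 (60%, against 40.6% of all genes called higher), and their median difference from the wild-type mean was 1.32 on array 1 against 0.78 and 0.82 on arrays 2 and 3. Among the 49 lower genes it was the lowest leukemia array in 24 (49.0%, against 49.7% of all genes called lower). The same array was highest for the 18S ribosomal RNA probe set (12.35 log2 against 11.25 and 11.14 in leukemia and 7.77 to 9.41 in wild-type) and for the 3' minus 5' difference of Gapdh (0.31 against 0.08 and 0.01, and -0.14 to -0.06 in wild-type). By the hybridization entries of the array run records it was run with the 3 wild-type arrays, and leukemia arrays 2 and 3 were run apart, and the part of these measures in the Zfp values was not tested.

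Some genes that did not pass had 1 leukemia array far from the others, and they are named here after their values were seen. Zfp783 was at 6.99 and 7.71 on leukemia arrays 1 and 3 and at 3.68 on array 2, against a wild-type mean of 8.01 (change -1.88, limma adjusted p = 0.152). Zfp267 was at 6.18 and 6.23 on arrays 1 and 2 and at 3.54 on array 3, against 6.32 in wild-type (change -1.01, limma adjusted p = 0.276). Zfp560 and Zfp110 stood at 10.14 and 10.07 on array 1 against 8.36 and 8.32 in wild-type, and at 8.59 to 8.92 on the other leukemia arrays, and neither passed (limma adjusted p = 0.115 and 0.0884). The probe set of Zfp110 has an ending that marks possible shared targets. A further probe set of Zfp110 without such an ending rose by 0.66 (adjusted p = 0.0364, limma over all probe sets). It was at 6.75, 6.57 and 7.02 in wild-type and at 7.75, 7.25 and 7.31 in leukemia. Another one, at 0.94, did not pass (adjusted p = 0.0735, limma over all probe sets). Of the 150 Zfp genes not called, 128 had a change under 0.5 log2 in size and 22 a larger one.

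A gene's further probe sets gave a second readout, although they had been ranked against the brightest one and had to pass the same filter. Some passed it through 1 group alone, such as that of Zfp36l1 in leukemia and those of Zfp608 and Zfp704 in wild-type. The separation of such probe sets was required by the filter, so the counts below are descriptions. There were 96 tested further probe sets for 65 of the 219 Zfp genes. With each probe set tested singly, 39.1% of all those with 1 symbol were called. For the 20 higher genes, 9 of 9 further probe sets were also higher in leukemia and 7 of them were called. For the 49 lower genes, 10 of 14 were also lower, 4 were called lower and 0 were called higher. The split covers 17 genes only, and the probe sets share the arrays. Zfp292, named after its values were seen, was called higher by all 4 of its tested probe sets, with rises of 0.45, 0.52, 0.64 and 0.71. By contrast, 15 genes that were not called by their brightest probe set had a further one that was.

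Among these the widest disagreement was in Zfp710, named like the next genes after its values were seen. Its brightest probe set was at 0.05 (limma adjusted p = 0.781), while a second one lay at 6.12, 6.37 and 6.31 log2 in wild-type and at 4.86, 4.53 and 4.83 in leukemia, where it fell by 1.53 ± 0.17 (adjusted p = 5.63e-04, limma over all probe sets). Zfp266 was at 0.05 with the brightest and rose by 1.39 with another, Zfp445 was at -0.06 and rose by 1.18 with a probe set whose ending marks possible shared targets, and Zfp949 was at 0.75 and rose by 1.57. Zfp24 had 1 further probe set that rose by 0.74 and 2 that fell by 0.68 and 0.50. The direction or the call of these genes therefore depends on the probe set. The further probe set of Zfp710 had passed the filter through the wild-type arrays alone. Those of Zfp266 and Zfp949, and the one of Zfp24 that rose, had passed through the leukemia arrays alone. Their separation was thus required by the filter. For Zfp185 the second probe set was dim, and for Zfp945, Zfp324, Zfp948 and Zfp991 no further tested probe set was used here.

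**Figure D4:**
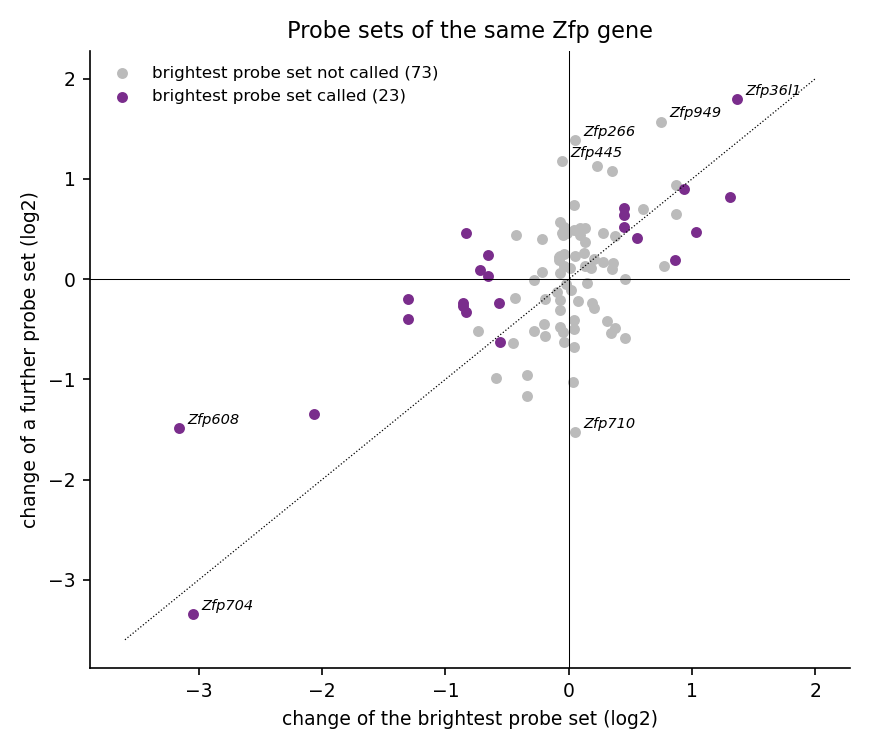
Change of the brightest probe set (x axis) and of each further tested probe set of the same Zfp gene (y axis), both leukemia minus wild-type in log2, with the dotted line marking equality. Purple points, whose brightest probe set was called, lie mostly at the lower left and upper right (19 of 23), and Zfp710 lies at 0.05 and -1.53.

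Neighbouring Zfp genes were grouped by their order in the RefSeq gene table of GRCm38.p6, as runs with at most 2 other protein-coding genes between them. The array values carry no genome build, so no positions are given for these genes. Of the tested genes placed in that order, 91 stood alone, 62 were in runs of 2 to 4 and 64 in runs of 5 or more. The shares called were 31.9%, 37.1% and 25%, against 31.5% of all Zfp genes and 42.1% of all genes, and the median changes were -0.13, -0.17 and -0.07. The differences between these shares were not tested. The run with the most tested members, 12 of 18 genes from Zfp677 to Zfp946, held genes that rose beside one that fell. Zfp948, Zfp995 and Zfp944 rose by 1.25, 0.86 and 1.04, and Zfp946, which ends the run, fell by 1.23 (limma adjusted p = 0.00264), from 5.98 to 6.04 in wild-type to 4.83, 4.45 and 5.06 in leukemia. Zfp946 had passed the filter through the wild-type arrays alone and Zfp948 through the leukemia arrays alone, so their differences were required by the filter. The other 8 genes did not pass, with 9 of the 12 changes above 0 and a median of 0.37. The call of Zfp995 (limma adjusted p = 0.0496) was lost in 11 of its 17 alternatives, and Zfp995 and Zfp944 were highest on leukemia array 1.

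**Figure D5:**
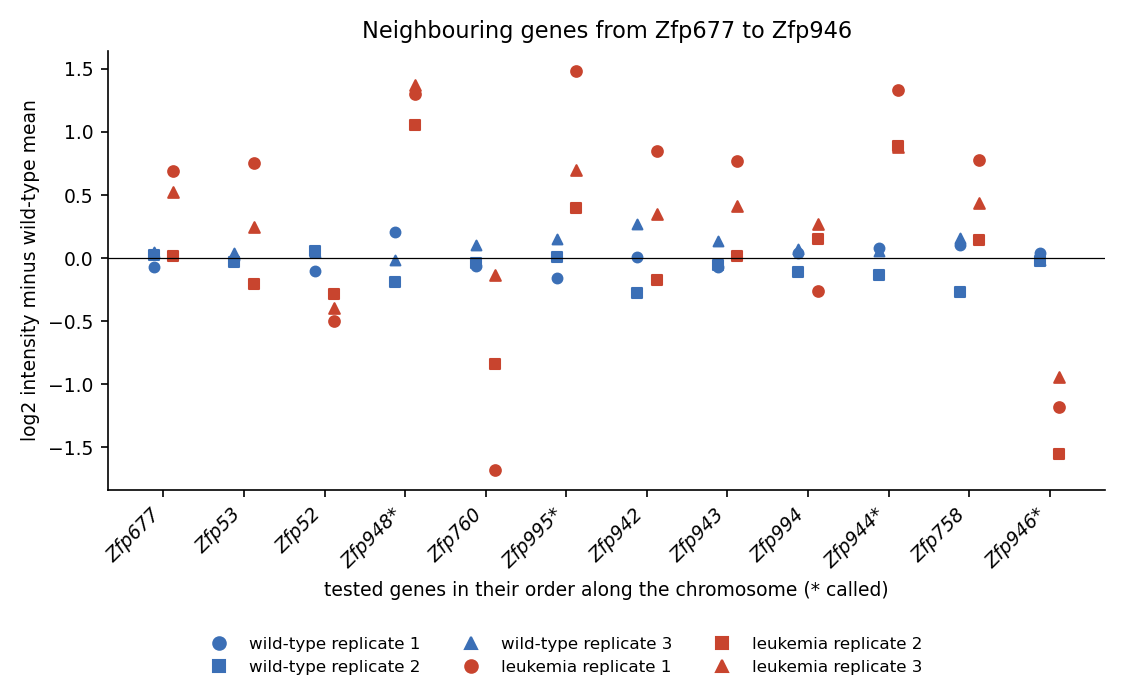
Level on each array minus the gene's wild-type mean (y axis, log2) for the 12 tested Zfp genes of one run of neighbours, in their order along the chromosome (x axis), with blue for wild-type, red for leukemia and a star for called genes. Zfp948, Zfp995 and Zfp944 lie above 0 and Zfp946 below it on all leukemia arrays, and the circles of leukemia replicate 1 are often the farthest from 0.

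Across all Zfp genes 59.8% of changes were below 0, and across all genes 56.9%. In the run of 8 genes from Zfp786 to Zfp467, 5 of 6 tested genes had changes below 0, and Zfp282, Zfp956 and Zfp777 fell by 1.02, 0.93 and 0.59. The calls of Zfp777 and Zfp956 were lost in 8 and 3 of 18 alternatives. In the run of 15 from Zfp84 to Zfp146, 7 of 8 tested genes were below 0 and Zfp84 and Zfp566 fell by 0.83 and 0.87. The call of Zfp84 was lost on leaving out any wild-type array and with the mean of its probe sets, and a further probe set of it was at 0.46 without passing. The run of 23 from Zfp712 to Zfp273 had 9 tested members and 0 calls (limma, 0 also at an unadjusted p under 0.05), with a median of -0.06. From a run of 16 genes, Zfp990 to Zfp933, only 3 were tested, of which Zfp991 and Zfp979 rose by 1.21 and 0.86. Neighbours can share sequence, so their probe sets need not be separate readouts.

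Promoter sequences were read for the Zfp genes because the fusion protein keeps the DNA-binding part of AML1, a RUNX factor. RefSeq windows of GRCm38.p6, from 250 bases before to 50 after a gene's start, were matched by gene ID for 180 of the 219 genes. The letters TGTGGT of the RUNX motif, on either strand, stood in the windows of 29 Zfp genes, or 16.1%, against 14.7% of the 7996 tested genes with a window. They stood in 2 of 16 higher (12.5%), 7 of 40 lower (17.5%) and 20 of 124 uncalled Zfp genes (16.1%), shares that lie close to each other. The ETS letters CCGGAA stood in 41.1% of Zfp genes against 34.2% of all, the SP letters GGGCGG in 58.3% against 70.5%, and CCAAT in 50.6% against 43.3%, and these words may overlap. Zfp windows had a median of 17 CG dinucleotides against 21. A match is a run of letters, and no binding was measured.

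The 250 bases before the start are shown for 1 higher and 3 lower genes with the RUNX letters, 5' to 3' on the gene's strand, to show where the letters lie in Zfp promoters. Capitals mark TGTGGT or its reverse complement ACCACA. The stretches are chr13:74493962-74494211 (minus strand) for Zfp825, chr13:21944844-21945093 (plus, the first of its windows) for Zfp184, chr7:30090511-30090760 (minus) for Zfp566 and chr17:24669437-24669686 (plus) for Zfp598, all in GRCm38.p6.
Zfp825: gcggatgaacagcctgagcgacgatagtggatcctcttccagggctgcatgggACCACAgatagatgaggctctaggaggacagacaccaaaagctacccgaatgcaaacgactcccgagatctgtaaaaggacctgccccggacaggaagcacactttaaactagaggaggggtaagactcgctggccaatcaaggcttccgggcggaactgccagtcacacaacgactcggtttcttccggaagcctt
Zfp184: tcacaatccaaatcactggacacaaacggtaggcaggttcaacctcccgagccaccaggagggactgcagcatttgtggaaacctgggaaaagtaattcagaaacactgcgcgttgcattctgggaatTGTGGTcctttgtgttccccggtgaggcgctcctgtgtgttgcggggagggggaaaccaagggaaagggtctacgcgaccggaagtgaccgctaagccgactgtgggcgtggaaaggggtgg
Zfp566: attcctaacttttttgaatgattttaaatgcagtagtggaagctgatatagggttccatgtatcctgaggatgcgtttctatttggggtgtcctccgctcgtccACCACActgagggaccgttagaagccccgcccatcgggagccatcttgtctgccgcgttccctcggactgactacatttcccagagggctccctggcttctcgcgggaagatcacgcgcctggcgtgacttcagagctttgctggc
Zfp598: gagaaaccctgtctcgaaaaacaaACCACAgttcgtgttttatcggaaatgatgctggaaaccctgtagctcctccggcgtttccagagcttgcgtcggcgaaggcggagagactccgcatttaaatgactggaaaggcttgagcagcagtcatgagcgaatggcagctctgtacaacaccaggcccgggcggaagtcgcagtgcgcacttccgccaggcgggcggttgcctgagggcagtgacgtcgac
The match begins 197 bases before the start in Zfp825, which rose by 0.55 (limma adjusted p = 0.0199), 122 in Zfp184, 146 in Zfp566 and 226 in Zfp598. In Zfp184 it is on the gene's strand and in the other 3 on the opposite strand.

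On a list of KRAB corepressor and heterochromatin genes, all called genes were lower in leukemia. The list is broad, and its falls include Dnmt3a, Dnmt3b, Uhrf1 and Hdac2. Of 22 tested genes on that list of 26, 12 fell and 0 rose, against 25.2% of all genes that fell, with a median change of -0.42. Trim28, the corepressor that KRAB domains bind and named after its value was seen like Setdb1, had a mean of 12.01 log2 in wild-type (SD 0.01, n = 3) and of 11.67 in leukemia (SD 0.13, n = 3), and it fell by 0.34 ± 0.07 (limma adjusted p = 0.00811). That probe set has an ending that marks possible shared targets, and the other of the 2 probe sets of Trim28 is not reported here. Setdb1, the histone methyltransferase partner of Trim28, was at -0.48 ± 0.18 and did not pass (limma adjusted p = 0.0680). The largest changes were those of the NuRD subunit Mta2, which fell by 1.16, and its partner Mbd3, which fell by 0.92. Only 1 of the 12 falls reached 2-fold.

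Zinc finger families with other symbols gave shares near that of the Zfp genes or below it. Of 33 tested Zbtb genes 3 were higher and 7 lower (30.3%), of 12 Zscan and Zkscan genes 2 and 2 (33.3%), and of 14 Zc3h genes 1 and 1 (14.3%), against 31.5% for Zfp and 42.1% for all genes. The differences between these families were not tested.

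Markers of other cells also differed between the groups. Kit was above the percentile on all 6 arrays and fell by 0.76. Erythroblast markers (3 of 6 measured) were the one list whose range of sums lay higher in leukemia, at 3318 to 4191 against 2127 to 3512, but these ranges overlap. Alas2 and Slc4a1 were higher and both dim in wild-type. Ermap, by far the brightest of the 3, had means of 11.51 log2 in wild-type and 11.62 in leukemia and did not pass (change 0.11, limma adjusted p = 0.677). Sums were lower for macrophage (6 of 6 measured, 134 to 175 against 462 to 619), natural killer (2 of 4, 196 to 231 against 2184 to 2786), neutrophil (4 of 6, 78 to 83.1 against 122 to 619), stromal and endothelial (5 of 5, 70.1 to 184 against 324 to 410) and T cell markers (2 of 6, 28.2 to 35.2 against 44.8 to 74.6). The lower stromal and endothelial sum came from Pecam1, which fell by 4.61, while Cdh5, Col1a1, Col3a1 and Cxcl12 were dim on all wild-type arrays and were at -0.03, 0.14, 0.11 and 0.76. In leukemia Ighm, Cd68, C1qa, C1qb, S100a8, S100a9, Pecam1 and Thy1 were dim on all arrays, and Cd8a, Ms4a1, Adgre1 and Spic were dim on all arrays of both groups. The part of these cells in the Zfp changes was not tested.

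The 80 dim Zfp genes had mean levels of 2.30 to 5.47 log2, and 63 of them reached the percentile on no array. The groups did not overlap for 32 of them, nor for 109 of the 219 tested Zfp genes (49.8%, against 59.2% of all genes tested). A difference of at least 2-fold was seen for 9 of the 80 dim genes, each lower in leukemia. The same shares were not computed over all dim genes, so the counts of 32 and 9 are descriptions only. The largest, named after its value was seen, was Zfp799, at 5.64, 5.63 and 5.30 in wild-type and at 3.02, 3.65 and 2.88 in leukemia. Zfp516 was at 4.90, 6.36 and 5.59 against 3.73, 3.81 and 3.86. Without any filter 86 of the 299 Zfp genes were called, 18 higher and 68 lower, against 34.4% of all genes.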

How the data were processed

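RNA from 6 samples was hybridized to 1 array each. The authors deposited 1 intensity per probe set and array, processed with RMA per the submitters' processing notes (version not given in the sources used here); the values, 3.31 to 18869, are linear, with array medians of 71.6 to 79.9, and log2 was taken with nothing added. The deposited array run records hold other entries (chip lot, fluidics), per the file headers, and gave 2 fluidics runs. Of 28821 probe sets, 39 were controls, 23750 had 1 gene symbol in the platform annotation and 677 several, which were not named. Symbols were matched to RefSeq GRCm38.p6 by gene ID for all 299 Zfp genes. The groups were compared with limma 3.58.1 (R 4.3.3) by two-sided moderated tests with an intensity trend, adjusted over 9715 genes by Benjamini-Hochberg at a threshold of 0.05; further probe sets were fitted among all single-symbol probe sets. The fit was tested on simulated data. The number of arrays limits the precision. Alternatives changed the filter, probe set, scaling, log offset, variance trend, weights, blocks and samples. Genes with values are the 10 largest rises and falls, 3 role lists, those at the filter's edge and up to 2 per direction of each partner list; others are named after their values were seen. The members and lists were chosen with earlier results of these data known.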

Additional observations from a re-analysis of the deposited data

How the results depend on the processing

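Of the 69 called Zfp genes, 32 (8 higher, 24 lower) were called in every alternative that tested them, and 33 in all 6 fits that left out 1 array. Leaving out 1 array gave 36 to 85 called Zfp genes, with 8 to 26 higher and 27 to 59 lower, and 2647 to 4716 of all genes. The 60th percentile filter, which tests 114 Zfp genes, gave 33 (6 higher, 27 lower), or 28.9% against 42.6% of all genes. The fluidics run block, which sets leukemia array 1 alone against wild-type, gave 97, of which 42 were higher and 55 lower, or 44.3% against 52.8% of all genes. Other settings gave 60 to 86 calls, or 27.9% to 37.9% of Zfp genes against 34.4% to 48.4% of all genes. The replicate block gave 61 called Zfp genes (18 higher, 43 lower) and 3565 of all genes. Across all genes tested, deviations of same-numbered samples from their group means had correlations of -0.07, 0.05 and 0.03. The labels do not pair these samples, and so few arrays cannot settle whether they were handled in pairs. Of the called genes Zfp235, at -0.68, was at 0.0497 with the mean of its probe sets. The signs of 8 uncalled genes turned, cause not tested: with the mean of probe sets Zfp148 was 0.0458, Zfp281 0.0697, Zfp106 0.0940, Zfp207 0.0875, Zfp346 -0.0703 and Zfp593 -0.0973; without shared endings Zfp638 was 0.44; with median centring Zfp148 was 0.00962, Zfp106 0.0296 and Zfp207 0.0374; with the run block Zfp281 was 0.0195, Zfp326 0.24 and Zfp346 -0.0938. Leaving out 1 array moved Zfp148 from -0.14 to 0.0581, Zfp207 from -0.16 to 0.0261 and Zfp326 from -0.53 to 0.12. Dim signals limit what can be said of 80 Zfp genes.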
